A study of Mus musculus with 34 samples.

Results

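The drug bomedemstat (BOM), which blocks the histone-demethylating enzyme LSD1, was compared with the solvent DMSO in mouse small cell lung cancer (SCLC) cells that had also received interferon gamma (IFNg). Of the 34 samples of the series, 5 were chosen by their labels. They were 2 RNA sequencing libraries of the line RP-48OVA-LLO190 cultured for 10 d with BOM and 3 of the same line cultured for 10 d with DMSO, and both groups were given IFNg for the last 48 h. In the same table of counts, 2 libraries with BOM and 3 with DMSO, without IFNg, served to show the same drug difference in cells that had not met the cytokine. The labels give a dose for neither agent and name this 1 line, and they do not say whether the libraries of a group came from separate cultures, so p-values measure the spread between these libraries, which may be technical.

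LSD1, the product of Kdm1a, removes methyl marks from histones and acts with the corepressor CoREST to keep genes silent. SCLC is a neuroendocrine tumor of the lung, and its cells are known for low levels of antigen presentation and low Notch signaling. IFNg acts through the kinases JAK1 and JAK2 and turns on antigen presentation genes. Type I interferons act through a complex that holds STAT2 and IRF9 and binds a promoter motif called the interferon-stimulated response element (ISRE).

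The libraries held 6.21 and 9.04 M counts for BOM with IFNg, 6.26 to 6.69 M for DMSO with IFNg, 6.16 and 6.56 M for BOM and 5.90 to 7.16 M for DMSO. Levels are given as CPM, counts relative to the library total, scaled by the trimmed mean of M values (TMM). The first principal component (46.4% of the variance) separated the BOM libraries from the DMSO libraries, and the second (26.2%) separated those with IFNg from those without. The third (7.85%) put replicate 1 of all 4 groups on one side and replicates 2 and 3 on the other. All 9 defining SCLC genes of the marker list, among them Insm1, Chga and Syp, passed the filter on low counts. Of these 9, 1 was called higher and 3 lower with BOM when IFNg was present, against 13.0% and 10.1% of all genes tested. The summed level of all 9 was 2800 to 2920 CPM in BOM with IFNg cells and 3000 to 3390 CPM in DMSO with IFNg cells. Markers of T and natural killer cells summed to 2.33 to 2.51 CPM and 2.15 to 2.69 CPM, with Cd3d, Cd3g, Ncr1, Nkg7 and Gzmb at 0, and macrophage and other myeloid markers to 9.04 to 11.3 CPM and 7.51 to 15.3 CPM, with Adgre1, Itgax, C1qa, S100a8 and S100a9 at 0. B cell markers summed to 115 to 149 CPM and 102 to 114 CPM, with 1 of 2 tested of 5 listed called higher. The noncoding transcript Gm26917 took 9.05 to 9.35% of the counts in BOM with IFNg libraries and 11.7 to 14.8% in DMSO with IFNg libraries.

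With IFNg present, BOM changed a broad set of genes, and more genes rose than fell. Of 15230 genes tested, 3518 (23.1%) were called at an adjusted p under 0.05 by edgeR's quasi-likelihood test, 1979 of them higher (13.0% of the genes tested) and 1539 lower (10.1%). At least 2-fold changes numbered 960 upward and 291 downward, and at least 4-fold changes 396 and 82. Scaling by library size alone, which moved the median log2 fold change of all genes from -0.01 to 0.05, gave 2282 higher and 1074 lower genes. Leaving out BOM with IFNg replicate 2, the deepest library, gave 2095 calls, 1285 higher and 810 lower. Such a fit leaves 1 BOM with IFNg library, which is assumed to vary like the libraries of the other groups, and it has fewer samples, so a call lost in it does not show a smaller difference. In these bulk samples, fewer cells of a type and less RNA per cell cannot be told apart.

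**Figure D1:**
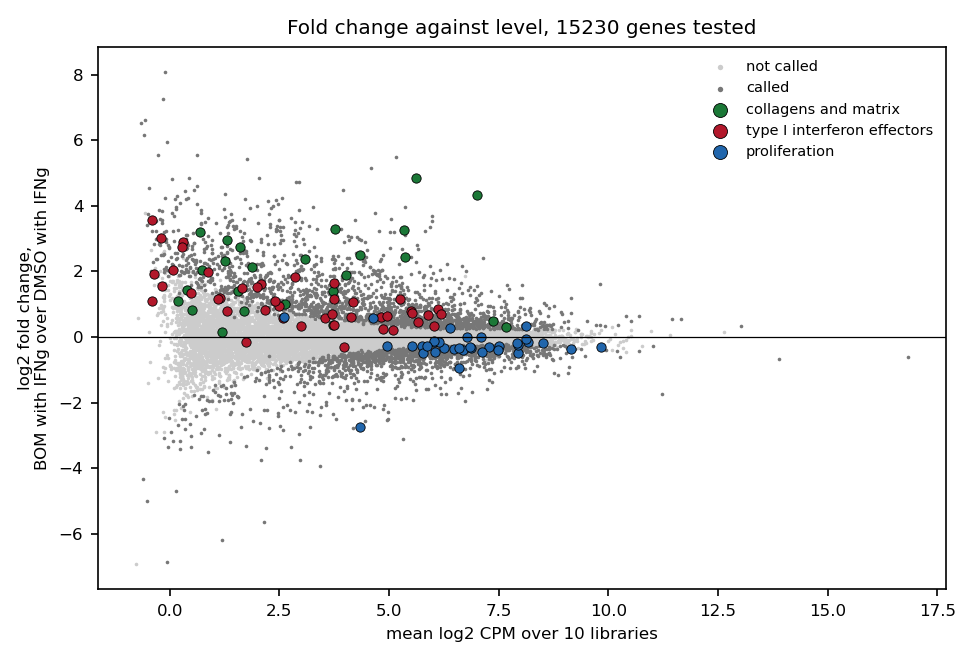
Log2 fold change of BOM with IFNg over DMSO with IFNg (vertical axis) against mean log2 CPM over 10 libraries (horizontal axis) for 15230 genes, dark grey where called. Matrix genes (green) and type I interferon effectors (red) lie mostly above 0, and most proliferation genes (blue) lie just below it.

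The 12 largest rises by the naming rule included 3 collagen chain genes and 2 airway genes. Bpifb1, which encodes a secreted protein of the airway lining (ENSMUSG00000027485.15, chromosome 2, 154190818 to 154220369, mm10), had 183 and 369.7 CPM in BOM with IFNg cells, against 4.44, 7.27 and 6.93 CPM in DMSO with IFNg cells. Its log2 fold change was 5.48 ± 0.30 (SE, edgeR adjusted p = 8.27e-10, 4.88 without BOM with IFNg replicate 2). The collagen VI chain gene Col6a2 had 244 and 402 CPM, against 8.27, 13.1 and 12.1 CPM (4.86 ± 0.20, edgeR adjusted p = 1.86e-11). Its partner chain gene Col6a1 (ENSMUSG00000001119.7, chromosome 10, 76708792 to 76726168), next to it on chromosome 10, had 666 and 888 CPM, against 33.7, 43.2 and 38.3 CPM (4.34 ± 0.13, edgeR adjusted p = 1.62e-12). For all 3 genes both BOM with IFNg libraries lay above the 3 DMSO with IFNg libraries, a condition of the naming rule. The others among the 12 largest rises chosen by the naming rule were the microRNA host transcript Mir100hg (5.17), the calcineurin regulator Rcan2 (4.84), the potassium channel gene Kcnk9 (4.74), the cation channel gene Trpv4 (4.74), the transcription factor Tbx2 (4.49), the cartilage collagen gene Col2a1 (4.24, and 3.18 without BOM with IFNg replicate 2), the bone morphogenetic protein receptor gene Bmpr1b (4.18), the arginine methyltransferase gene Prmt8 (4.14) and the airway gene Bpifa1 (4.06). Il33, an alarmin of the interleukin family named here after its values were seen, had 85 counts over the BOM with IFNg libraries and 0 over the DMSO with IFNg libraries, at least 34.3-fold higher if 3 counts are assumed for the DMSO group.

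The 12 largest falls by the naming rule included a glycosyltransferase, a tight junction and a cell cycle kinase gene. Mgat4c, which encodes a glycosyltransferase (ENSMUSG00000019888.16, chromosome 10, 101681487 to 102391469), had 0.155 and 0.327 CPM in BOM with IFNg cells, against 10.4, 16.0 and 14.9 CPM in DMSO with IFNg cells (-5.65 ± 0.50, edgeR adjusted p = 2.32e-07, -6.30 without BOM with IFNg replicate 2). The tight junction gene Ocln had 0.931 and 0.871 CPM, against 7.81, 9.33 and 11.2 CPM (-3.37 ± 0.43, edgeR adjusted p = 1.48e-05). The cell cycle kinase gene Cdk6 (ENSMUSG00000040274.11, chromosome 5, 3341485 to 3531008) had 6.21 and 7.19 CPM, against 48.1, 44.3 and 41.9 CPM (-2.73 ± 0.17, edgeR adjusted p = 2.91e-09). Every BOM with IFNg library lay below every DMSO with IFNg library here, a condition of the naming rule. The other falls among the 12 were the calcium-binding protein gene Cib3 (-3.76, and -4.67 without BOM with IFNg replicate 2), Vwa2 (-3.35, and -4.17 without that replicate), the actin-bundling gene Espn (-2.94), the neurotrophin receptor gene Ngfr (-2.84), the contactin gene Cntn4 (-2.77), the kinase gene Mapk13 (-2.73), the Wnt inhibitor gene Sfrp1 (-2.72), the epithelial trafficking gene Rab25 (-2.61) and Hepacam2 (-2.55).

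Antiviral effectors of the type I interferon program were higher with BOM in this comparison, where both groups had received IFNg. Of 51 listed effectors 43 passed the filter on low counts, and 33 rose and 0 fell, against 13.0% of all genes tested called higher. Their median log2 fold change was 0.94, against -0.01 for all genes tested. Of the 33 rises, 21 were called under every alternative and 10 were lost without BOM with IFNg replicate 2. All 5 libraries of the comparison came from cells without added type I interferon, as far as the labels say.

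Promoter sequence is shown for the effectors with the lowest p whose start region in the RefSeq table (GRCm38.p6, 250 bases before to 50 after the start) holds the ISRE letters (GAAA, any 2 bases, GAAA) on either strand. Each line gives 80 bases, 5′ to 3′ along the gene, and the capitals mark the ISRE letters, which read TTTC, any 2 bases, TTTC where they lie on the other strand.
Bst2 (chr8:71537552-71537631, minus strand): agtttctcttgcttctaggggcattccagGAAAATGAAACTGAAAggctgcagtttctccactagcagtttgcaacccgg
Ifit1 (chr19:34640769-34640848, plus strand): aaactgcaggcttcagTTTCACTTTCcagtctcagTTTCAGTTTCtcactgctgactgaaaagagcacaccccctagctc
Rsad2 (chr12:26456528-26456607, minus strand): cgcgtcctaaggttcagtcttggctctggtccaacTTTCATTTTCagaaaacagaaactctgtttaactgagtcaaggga
Ifit3 (chr19:34583372-34583451, plus strand): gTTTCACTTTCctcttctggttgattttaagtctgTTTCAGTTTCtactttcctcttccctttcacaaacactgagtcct
Isg15 (chr4:156200840-156200919, minus strand): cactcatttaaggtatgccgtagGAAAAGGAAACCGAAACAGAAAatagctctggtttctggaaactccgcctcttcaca
Slfn9 (chr11:82991831-82991910, minus strand): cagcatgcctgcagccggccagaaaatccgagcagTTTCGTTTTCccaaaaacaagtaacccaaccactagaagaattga
Bst2, Isg15 and both Ifit genes hold more than 1 match, and in Bst2 and Isg15 these overlap. Of the 43 effectors 30 had a start region in the table, and 12 of them (40%) held the letters anywhere in that region. This compares with 395 of 11230 genes tested that had a start region (3.52%) and 1079 of 27025 genes in the table (3.99%). In other lists the letters stood in 9 of 10 interferon-inducible GTPases with a start region (90%) and 4 of 12 nucleic acid sensors (33.3%). They also stood in 3 of 9 MHC class I chains (33.3%) and 0 of 23 mesenchymal genes. Most tested GTPases and class I chains were not called, so the letters were not particular to rising lists. Among tested genes with a start region in the table, 4.95% of those called higher held the letters (74 of 1496). The share was 2.55% of those called lower (29 of 1139) and 3.40% of those not called (292 of 8595). Effectors with and without the letters both rose: 9 of the 12 with a match were called higher (median log2 fold change 1.14), and 16 of the 18 without one (median 0.77). A match is a run of letters and not a measured binding site.

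The effectors with the lowest p rose about as strongly in both BOM with IFNg libraries. Xaf1, an interferon-induced gene linked to cell death (ENSMUSG00000040483.15, chromosome 11, 72301629 to 72313733), had 97.0 and 90.7 CPM, against 27.6, 27.7 and 34.2 CPM in DMSO with IFNg cells (1.66 ± 0.14, edgeR adjusted p = 1.24e-07). Oasl2, of the oligoadenylate synthetase-like family (ENSMUSG00000029561.17, chromosome 5, 114896936 to 114912234), had 69.2 and 70.3 CPM, against 23.6, 23.6 and 24.9 CPM (1.54 ± 0.15, edgeR adjusted p = 6.52e-07). Bst2, the membrane protein tetherin that holds budding virus at the cell surface (ENSMUSG00000046718.8, chromosome 8, 71534255 to 71537456), had 102 and 125 CPM, against 23.4, 36.4 and 35.3 CPM (1.84 ± 0.18, edgeR adjusted p = 7.30e-07). The groups did not overlap for any of them. Choice by lowest p favors genes with close libraries and separate groups. Herc6, an interferon-induced ubiquitin ligase gene (ENSMUSG00000029798.11, chromosome 6, 57581000 to 57664632), had 106 and 96.1 CPM, against 44.1, 45.4 and 44.4 CPM (1.17 ± 0.12, edgeR adjusted p = 7.74e-07).

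Some of the other rising effectors are given as examples, named after their values were seen. The deubiquitinase gene Usp18, which removes Isg15 from proteins, rose by 1.61, the chaperone gene Rtp4 by 1.504, Ifi27 by 0.85 and the nucleotide kinase gene Cmpk2 by 0.81. The tetratricopeptide gene Ifit1 had 8.85 and 10.3 CPM, against 0.613, 1.58 and 1.65 CPM (2.90 ± 0.42, edgeR adjusted p = 6.79e-05), and Ifi44 had 15.4 and 14.6 CPM, against 1.38, 1.58 and 3.80 CPM (2.73 ± 0.39, and 3.33 without DMSO with IFNg replicate 3). Isg15, the ubiquitin-like modifier, had 5.43 and 5.99 CPM, against 0.919, 1.74 and 1.49 CPM (2.04 ± 0.50), and its call ended without BOM with IFNg replicate 2. Ifit3 had only 3.26 and 3.38 CPM, against 0.306, 0 and 0.495 CPM (3.56 ± 0.78, 4.27 without DMSO with IFNg replicate 3), so its fold rests on few counts. The antiviral GTPase gene Mx1 rose by 0.94, the viperin gene Rsad2 by 1.11, and the ADP-ribosylation genes Parp12 and Dtx3l by 0.68 and 0.73. Among the 10 effectors not called, Ifitm3 had 70.3 and 78.5 CPM, against 47.6, 74.9 and 70.8 CPM (0.21 ± 0.19).

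**Figure D2:**
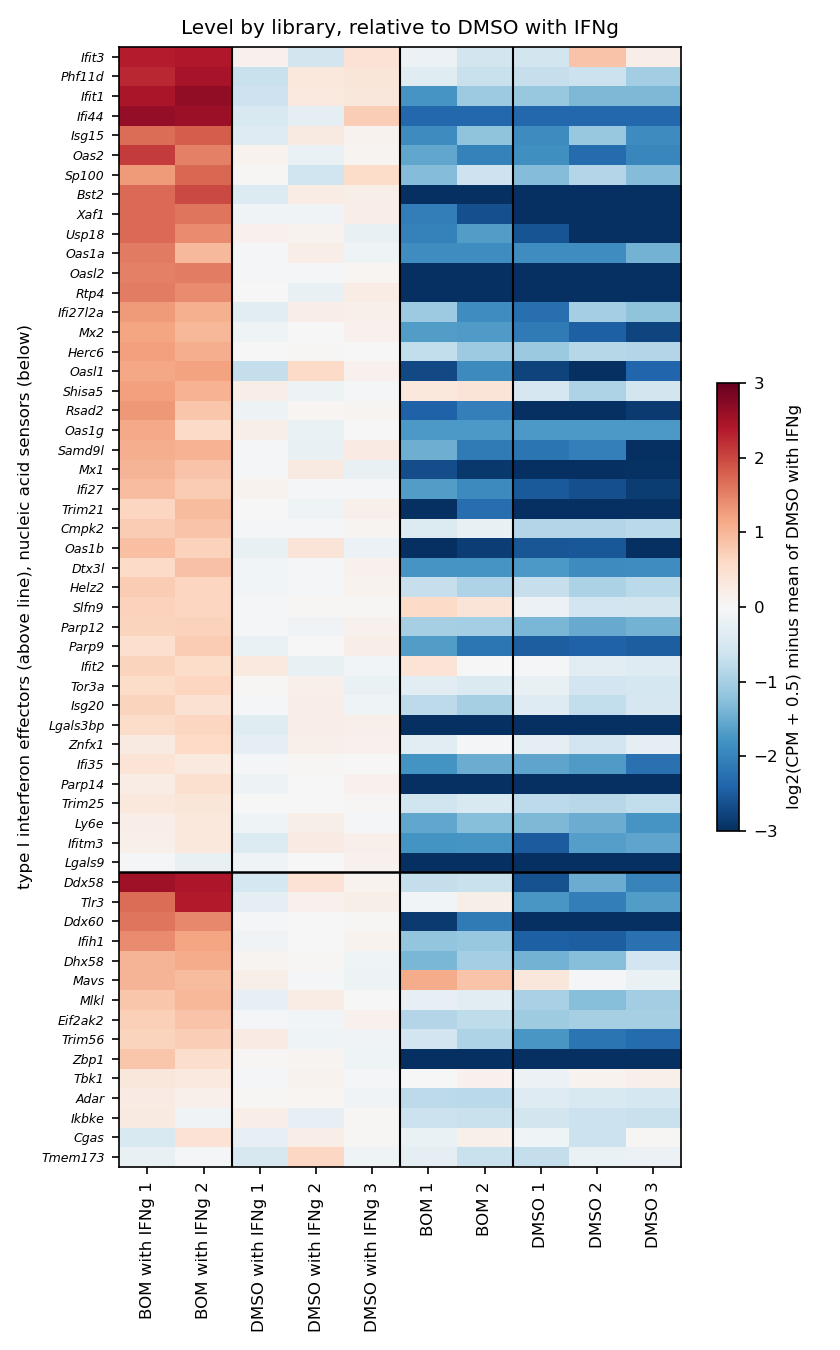
Level of 42 type I interferon effectors and, below the line, 15 nucleic acid sensors in each of the 10 libraries, as log2(CPM + 0.5) minus the mean of the DMSO with IFNg libraries. The BOM with IFNg columns are red for most genes and the columns without IFNg are mostly blue.

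Sensors of foreign and self nucleic acid rose with the effectors. Of 17 listed genes 15 were tested, and 10 rose and 0 fell (median 0.78), against 13.0% and 10.1% of all genes tested. Ddx58, which encodes the RNA sensor RIG-I (ENSMUSG00000040296.15, chromosome 4, 40203773 to 40239828), had 56.2 and 52.4 CPM in BOM with IFNg cells, against 6.28, 12.6 and 10.1 CPM in DMSO with IFNg cells (2.49 ± 0.23, edgeR adjusted p = 3.42e-07). Ifih1, which encodes the long double-stranded RNA sensor MDA5 (ENSMUSG00000026896.14, chromosome 2, 62595798 to 62646255), had 91.4 and 78.9 CPM, against 31.7, 34.3 and 36.6 CPM (1.31 ± 0.12, edgeR adjusted p = 3.48e-07). Tlr3, the endosomal receptor for double-stranded RNA, had 15.4 and 25.3 CPM, against 3.52, 4.90 and 5.12 CPM (2.18 ± 0.27, edgeR adjusted p = 1.00e-05). Both BOM libraries exceeded all DMSO libraries for these sensors, a pattern that choice by lowest p favors. The RIG-I cofactor gene Ddx60 rose by 1.57 ± 0.18 (edgeR adjusted p = 4.08e-06). Named after their values were seen, the adaptor gene Mavs rose by 0.99, the RNA-activated kinase gene Eif2ak2 by 0.78 and the Z-form nucleic acid sensor gene Zbp1 by 0.69. The DNA sensing genes were not called: Cgas had 5.59 and 10.8 CPM, against 6.59, 9.17 and 8.09 CPM, and its adaptor gene Tmem173 (STING) had 8.07 and 9.26 CPM, against 6.59, 14.7 and 8.58 CPM.

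Among the signaling genes above these effectors, more rose than fell. Of 24 tested, 10 rose and 2 fell (median 0.28), against 13.0% and 10.1% of all genes tested. The share of falls was thus near that of all genes. Stat2 (ENSMUSG00000040033.16, chromosome 10, 128270559 to 128292849) had 280.2 and 248 CPM in BOM with IFNg cells, against 160.4, 177 and 154 CPM in DMSO with IFNg cells (0.69 ± 0.10, edgeR adjusted p = 3.79e-05). Irf7, the factor that drives type I interferon genes (ENSMUSG00000025498.15, chromosome 7, 141262706 to 141266481), had 32.6 and 29.7 CPM, against 9.04, 9.96 and 8.75 CPM (1.75 ± 0.24, edgeR adjusted p = 4.04e-05). The kinase gene Jak1 rose by 0.67 ± 0.11 (edgeR adjusted p = 2.02e-04). These calls held under every alternative, while 8 of the 12 calls in the list did not. Irf9 had 104 and 102 CPM, against 82.1, 86.6 and 78.3 CPM (0.32 ± 0.11, edgeR adjusted p = 0.0347), and its call ended in 7 alternatives. Leaving out BOM with IFNg replicate 2 left 5 of the 10 rises, and leaving out either BOM with IFNg library left 1 of the 2 falls, of which Irf8 (-0.58) was lost without replicate 1 and the phosphatase gene Ptpn6 (-3.03) without replicate 2. Irf1, an early target of IFNg, had 314 and 415 CPM, against 256, 383 and 347 CPM (0.15 ± 0.14, edgeR adjusted p = 0.486), and the receptor chain gene Ifngr1 had 13.0 and 17.6 CPM, against 13.3, 13.9 and 13.7 CPM (0.18 ± 0.18).

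Interferon-inducible GTPases, which attack vacuoles of intracellular pathogens and are classic IFNg targets, were mostly not called. Of 19 listed 17 were tested, and 3 rose and 0 fell (median 0.22), against 13.0% and 10.1% of all genes tested, so the share of rises was near that of all genes. Gbp2 (ENSMUSG00000028270.12, chromosome 3, 142620602 to 142638008) had 307 and 406 CPM in BOM with IFNg cells, against 138, 126 and 143 CPM in DMSO with IFNg cells (1.40 ± 0.13, edgeR adjusted p = 3.41e-07). Gbp3 had 237 and 239 CPM, against 161, 130.4 and 152 CPM (0.69 ± 0.11, edgeR adjusted p = 2.44e-04), and Gbp9 had 113 and 125 CPM, against 79.5, 76.4 and 89.97 CPM (0.54 ± 0.13), a call lost without BOM with IFNg replicate 2. Iigp1, Irgm1 and Igtp, named after their values were seen, were not called. Iigp1 had 347 and 569 CPM, against 488, 444 and 506 CPM (-0.06 ± 0.15), and Irgm1 had 323 and 506 CPM, against 305, 382 and 403 CPM (0.19 ± 0.15). Igtp had 349 and 484 CPM, against 501, 518 and 507 CPM (-0.29 ± 0.13, edgeR adjusted p = 0.131). The count of rises was 5 on leaving out either BOM library or BOM with IFNg replicate 1, 6 without DMSO replicate 1 and 7 with scaling by library size alone. Without BOM with IFNg replicate 2 there were 4 falls, and 1 to 3 without some of the other libraries. These genes are near-identical within families, so the counts of single copies are uncertain.

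**Figure D3:**
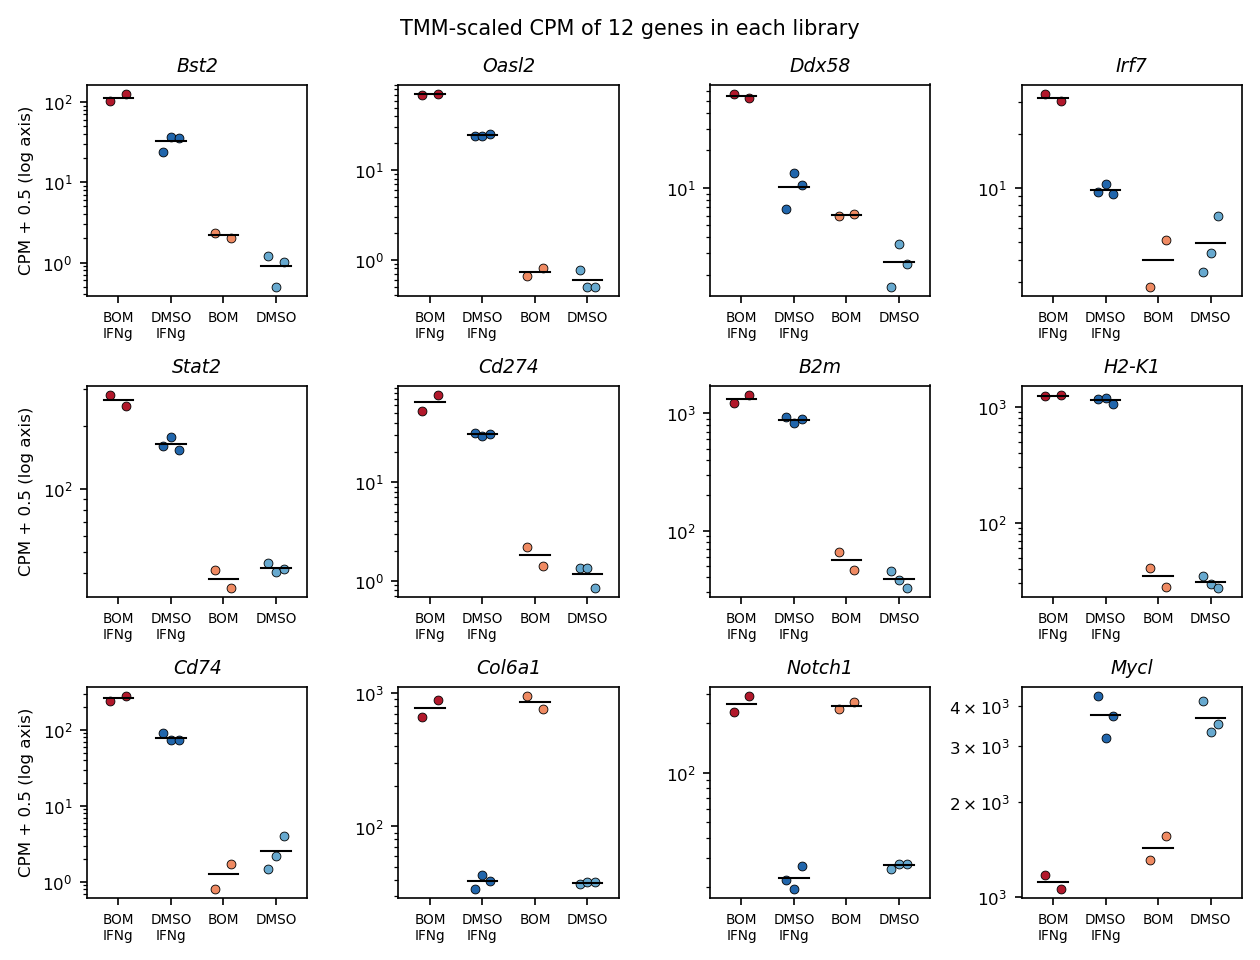
TMM-scaled CPM + 0.5 on a log axis for 12 genes, 1 point per library and a line at each group mean. Bst2, Oasl2, Ddx58, Irf7, Stat2, Cd274 and Cd74 are higher in BOM with IFNg than in DMSO with IFNg libraries, H2-K1 lies close together in both, and Col6a1, Notch1 and Mycl differ by BOM with and without IFNg.

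Genes of MHC class I, which shows peptides to CD8 T cells, were mostly not called between BOM and DMSO with IFNg present. Of 16 listed chain genes 12 were tested, and 3 rose and 0 fell (median 0.19), against 13.0% called higher and 10.1% called lower of all genes tested. B2m, the light chain of every class I molecule (ENSMUSG00000060802.8, chromosome 2, 122147686 to 122153083), had 1222 and 1431 CPM in BOM with IFNg cells, against 924, 829 and 889 CPM in DMSO with IFNg cells (0.59 ± 0.12, edgeR adjusted p = 0.00171). The heavy chain gene H2-D1 had 1063 and 1150.0 CPM, against 837, 902 and 869 CPM (0.35 ± 0.09, edgeR adjusted p = 0.00774). H2-K1, the other classical heavy chain of this list, had 1225 and 1257 CPM, against 1163, 1193 and 1047 CPM (0.13 ± 0.11, edgeR adjusted p = 0.456), with a 95% interval of -0.11 to 0.37 for the log2 fold change. B2m thus differed beyond the spread between libraries, and H2-K1 did not. H2-T23, a nonclassical chain read by natural killer cell receptors, had 91.7 and 105 CPM, against 80.7, 65.1 and 56.8 CPM (0.54 ± 0.16, edgeR adjusted p = 0.0224). The call of H2-D1 ended without BOM with IFNg replicate 2 and that of H2-T23 without that replicate or DMSO with IFNg replicate 2 or 3, which leaves 1 rise without BOM with IFNg replicate 2.

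The 14 genes that cut, carry and load class I peptides held 3 rises and 0 falls (median 0.21), against 13.0% and 10.1% of all genes tested. The loading gene Tapbp had 278 and 333 CPM in BOM with IFNg cells, against 182, 222 and 226 CPM in DMSO with IFNg cells (0.54 ± 0.10, edgeR adjusted p = 9.47e-04). The chaperone genes Pdia3 (0.35) and Canx (0.24) were the other rises, and Canx lost its call in 9 alternatives. Tap1, a subunit of the peptide transporter, had 488 and 461 CPM, against 422, 419.6 and 384 CPM (0.22 ± 0.08, edgeR adjusted p = 0.0750), and was called by limma voom (adjusted p = 0.0237) and with library size alone (edgeR adjusted p = 0.0308). Nlrc5, the transactivator of class I genes, had 712 and 670.1 CPM, against 792, 958 and 768 CPM (-0.28 ± 0.11, edgeR adjusted p = 0.0745), and was called lower by limma voom, without the filter and with the replicate block. The rises numbered 1 without BOM with IFNg replicate 2 or DMSO with IFNg replicate 2, and 5 without DMSO replicate 1, with library size alone or by limma voom.

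Several genes of MHC class II, which shows peptides to CD4 T cells, were higher with BOM. Of 14 listed 10 were tested, and 5 rose and 0 fell (median 0.38), against 13.0% and 10.1% of all genes tested. Cd74, the invariant chain (ENSMUSG00000024610.15, chromosome 18, 60803848 to 60812652), had 239 and 277 CPM in BOM with IFNg cells, against 89.4, 72.6 and 72.0 CPM in DMSO with IFNg cells (1.73 ± 0.15, edgeR adjusted p = 1.26e-07). The beta chain gene H2-Eb1 had 46.7 and 50.9 CPM, against 24.2, 22.4 and 24.3 CPM (1.05 ± 0.17, edgeR adjusted p = 2.98e-04). The peptide exchange gene H2-DMa had 26.5 and 26.6 CPM, against 14.1, 12.2 and 11.7 CPM (1.07 ± 0.20, edgeR adjusted p = 7.51e-04). Both BOM with IFNg libraries lay above all DMSO with IFNg libraries for these 3 genes, which choice by lowest p favors. The partner gene H2-DMb1 (1.33) and the class II transactivator gene Ciita (0.30 ± 0.10, edgeR adjusted p = 0.0399) also rose, but 3 rises remained as a count without either BOM with IFNg library or without DMSO with IFNg replicate 2 or 3, and Ciita lost its call in 9 alternatives. The alpha chain gene H2-Aa had 21.9 and 20.7 CPM, against 17.2, 15.8 and 13.7 CPM (0.45 ± 0.21), and H2-Ab1 had 17.9 and 34.2 CPM, against 26.5, 16.8 and 24.3 CPM (0.22 ± 0.26), neither called.

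Surface ligands that T and natural killer cells read rose for 4 of the 11 tested of 20 listed, and 0 fell (median -0.11). Of all genes tested, 13.0% were called higher and 10.1% lower. Cd274, which encodes the checkpoint ligand PD-L1 (ENSMUSG00000016496.7, chromosome 19, 29367455 to 29388095), had 51.7 and 75.3 CPM in BOM with IFNg cells, against 30.8, 28.6 and 30.0 CPM in DMSO with IFNg cells (1.10 ± 0.16, edgeR adjusted p = 8.30e-05). The phagocytosis signal gene Cd47 had 287 and 400.3 CPM, against 225, 197 and 261 CPM (0.59 ± 0.13), the adhesion gene Icam1 3.73 and 4.58 CPM, against 0.306, 1.74 and 0.660 CPM (2.19 ± 0.59, 3.08 without DMSO with IFNg replicate 2), and the stress ligand gene Ulbp1 57.1 and 52.4 CPM, against 43.8, 33.0 and 35.8 CPM (0.54 ± 0.17). Of these 4 calls that of Cd274 held under every alternative, that of Ulbp1 ended without either BOM with IFNg library or DMSO with IFNg replicate 2 or 3, and those of Cd47 and Icam1 ended without BOM with IFNg replicate 2, where 1 rise was left, and without DMSO replicate 1 there was also 1 fall.

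Of 17 listed chemokine and related genes 6 were tested, and 4 rose and 0 fell (median 1.42). The shares called higher and lower were 13.0% and 10.1% for all genes tested. Cxcl14 had 162 and 251 CPM in BOM with IFNg cells, against 14.2, 12.5 and 13.4 CPM in DMSO with IFNg cells (3.95 ± 0.16, edgeR adjusted p = 1.86e-11). Cxcl12, the ligand of the receptor Cxcr4, had 28.3 and 47.2 CPM, against 1.99, 3.95 and 5.45 CPM (3.33 ± 0.30, edgeR adjusted p = 3.26e-07). The membrane-bound chemokine gene Cx3cl1 had 27.5 and 29.2 CPM, against 3.98, 10.1 and 8.58 CPM (1.91 ± 0.25, edgeR adjusted p = 1.75e-05). All 3 were several-fold higher in both BOM libraries. The macrophage growth factor gene Csf1 had 21.4 and 42.0 CPM, against 13.5, 16.3 and 21.6 CPM (0.91 ± 0.25, edgeR adjusted p = 0.0147), with DMSO with IFNg replicate 3 above BOM with IFNg replicate 1, and its call ended without BOM with IFNg replicate 2, where the log2 fold change was 0.325.

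**Figure D4:**
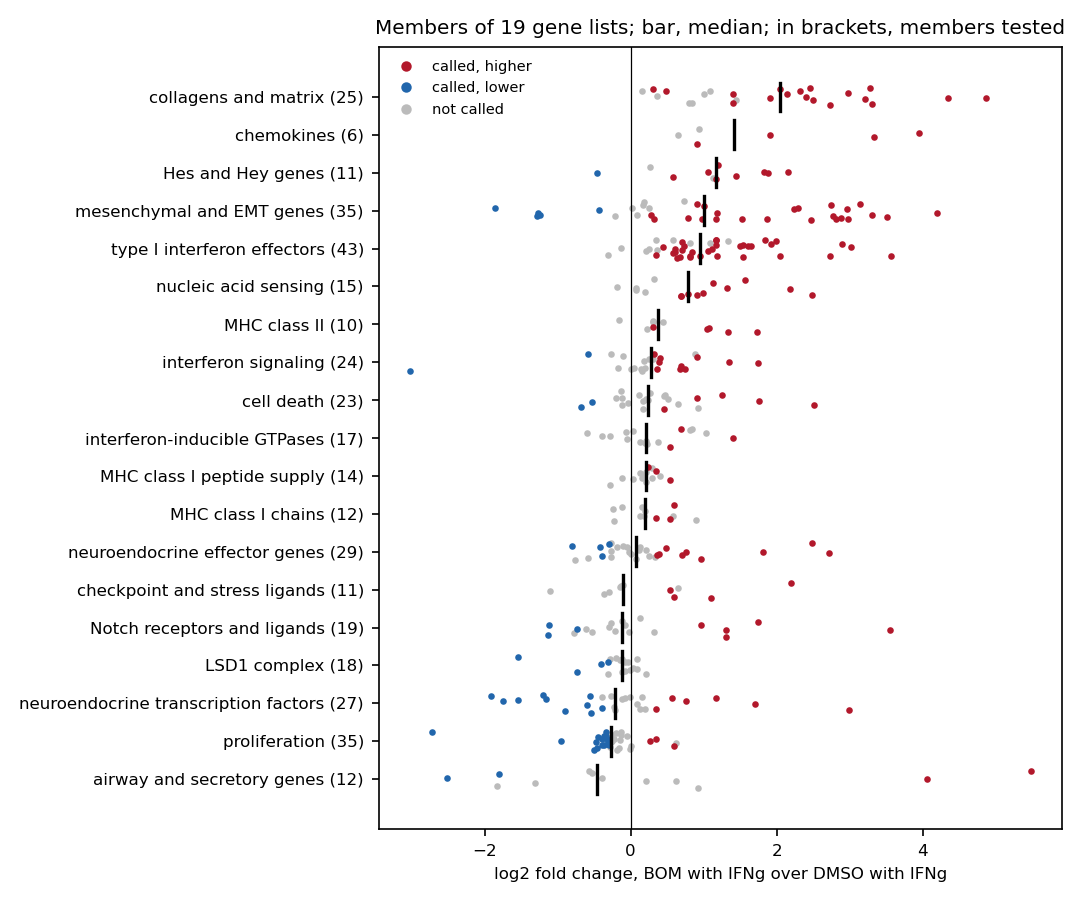
Log2 fold change of BOM with IFNg over DMSO with IFNg (horizontal axis) for each tested member of 19 gene lists, red where called higher and blue where called lower, with a bar at the list's median. Matrix genes and chemokines lie farthest to the right, and proliferation genes gather to the left of 0.

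Notch signaling, which opposes the neuroendocrine state, had members on both sides. Of 19 tested receptor, ligand and cofactor genes of 21 listed, 5 rose and 3 fell (median -0.11), against 13.0% and 10.1% of all genes tested. Notch1, which encodes a receptor (ENSMUSG00000026923.15, chromosome 2, 26457903 to 26516663), had 232 and 291 CPM in BOM with IFNg cells, against 21.6, 19.1 and 26.6 CPM in DMSO with IFNg cells (3.55 ± 0.13, edgeR adjusted p = 5.14e-12). Notch2 had 84.0 and 90.6 CPM, against 34.3, 36.0 and 35.8 CPM (1.30 ± 0.10, edgeR adjusted p = 4.67e-08), and the ligand gene Jag1 had 48.6 and 44.9 CPM, against 20.98, 17.9 and 17.5 CPM (1.31 ± 0.14, edgeR adjusted p = 1.76e-06). The ligand gene Dll4 (0.96) and the coactivator gene Maml2 (1.74) were the other rises. The falls were the glycosyltransferase genes Lfng (24.99 and 21.4 CPM, against 41.8, 54.9 and 53.0 CPM, -1.11 ± 0.14) and Mfng (-0.73), which tune ligand choice, and the inhibitory ligand gene Dll3 (-1.14, lost in 8 alternatives).

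Among the repressors of the Hes, Hey, Id and Bhlhe families, which Notch and bone morphogenetic protein signals induce, 8 of 11 tested of 14 listed rose and 1 fell (median 1.17). For all genes tested, 13.0% were called higher and 10.1% lower. Hes1, a direct Notch target, had 12.7 and 16.0 CPM in BOM with IFNg cells, against 3.22, 3.004 and 5.61 CPM in DMSO with IFNg cells (1.87 ± 0.28, edgeR adjusted p = 6.99e-05). Hey1 had 32.9 and 55.3 CPM, against 12.3, 12.3 and 13.2 CPM (1.82 ± 0.19, edgeR adjusted p = 1.85e-06), and Id4 and Id1 rose by 1.16 ± 0.17 and 1.195 ± 0.20. Hes6, which is known to promote neuronal differentiation, fell to 86.0 and 92.2 CPM in BOM with IFNg cells, against 112, 122 and 134 CPM in DMSO with IFNg cells (-0.46 ± 0.13, edgeR adjusted p = 0.0177), and this 1 fall was lost without either BOM with IFNg library or DMSO with IFNg replicate 3.

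Neuroendocrine genes changed in both directions. Of 27 tested transcription factors of 32 listed, 6 rose and 10 fell (median -0.21), against 13.0% and 10.1% of all genes tested. Mycl, the MYC family gene known as a driver of SCLC (ENSMUSG00000028654.13, chromosome 4, 122995652 to 123002485), had 1169.9 and 1063 CPM in BOM with IFNg cells, against 4295, 3180.2 and 3726 CPM in DMSO with IFNg cells (-1.74 ± 0.13, edgeR adjusted p = 3.23e-08). The homeobox gene Isl1 had 9.47 and 7.41 CPM, against 28.6, 29.6 and 35.8 CPM (-1.91 ± 0.23, edgeR adjusted p = 7.43e-06). For both factors the BOM with IFNg libraries lay below all DMSO with IFNg libraries, which choice by lowest p favors. Rest, the repressor of neuronal genes, had 21.7 and 26.3 CPM, against 1.99, 2.69 and 4.46 CPM (2.99 ± 0.28, edgeR adjusted p = 4.61e-07). Myc had 19.7 and 38.3 CPM, against 9.96, 14.9 and 14.4 CPM (1.17 ± 0.24), a rise lost without BOM with IFNg replicate 2, and Insm1 had 1363 and 1159 CPM, against 1533, 1084 and 1384 CPM (-0.08 ± 0.13), not called.

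Of 29 tested neuroendocrine effector genes of 31 listed, 9 rose and 4 fell (median 0.08), against 13.0% and 10.1% of all genes tested. The granin gene Scg2 had 87.7 and 108 CPM in BOM with IFNg cells, against 15.2, 15.3 and 14.0 CPM in DMSO with IFNg cells (2.72 ± 0.14, edgeR adjusted p = 2.68e-10), and the synaptic calcium sensor gene Syt1 had 60.1 and 64.5 CPM, against 9.19, 13.4 and 10.9 CPM (2.48 ± 0.15, edgeR adjusted p = 2.50e-09). The surface protein gene Sez6 rose by 0.96 ± 0.09 and the amine synthesis gene Ddc by 0.76 ± 0.08. Chga and Syp, standard diagnostic markers, were not called (-0.05 ± 0.14 and 0.11 ± 0.10). The 4 falls were the neuronal genes Stmn2 (-0.80), Elavl3 (-0.40), Elavl4 (-0.42) and Uchl1 (-0.29), of which 2 were left as a count without BOM with IFNg replicate 2 or DMSO with IFNg replicate 3.

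Mesenchymal and epithelial to mesenchymal transition (EMT) genes rose widely, with 23 of 35 tested higher and 5 lower (41 listed, median 1.01). All genes tested had 13.0% called higher and 10.1% lower. Tgfbr2, a receptor for transforming growth factor beta (ENSMUSG00000032440.13, chromosome 9, 116084293 to 116175360), had 66.9 and 57.2 CPM in BOM with IFNg cells, against 7.05, 4.90 and 6.77 CPM in DMSO with IFNg cells (3.31 ± 0.16, edgeR adjusted p = 2.46e-10). The ligand gene Tgfb2 had 179 and 201 CPM, against 49.3, 30.2 and 41.6 CPM (2.24 ± 0.13, edgeR adjusted p = 2.35e-09), and the factor gene Sox9 had 109.6 and 149 CPM, against 32.5, 21.98 and 24.8 CPM (2.29 ± 0.15, edgeR adjusted p = 7.70e-09). The intermediate filament gene Vim, named after its values were seen, had 42.7 and 85.8 CPM, against 6.89, 9.49 and 8.42 CPM (2.97 ± 0.35, and 2.37 without BOM with IFNg replicate 2). The list also holds epithelial genes, and its 5 falls were the epithelial genes Epcam (-1.24), Cdh1 (-1.27, and -2.08 without BOM with IFNg replicate 2) and Krt8 (-1.28) and the mesenchymal cadherin genes Cdh11 (-1.86 ± 0.16, edgeR adjusted p = 1.97e-07) and Cdh2 (-0.43, lost without BOM with IFNg replicate 2). Without BOM with IFNg replicate 2 there were 14 rises. Zeb1 and Zeb2, repressors of epithelial genes, were not called (0.19 ± 0.09 and 0.02 ± 0.18).

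Collagens and other matrix genes had the highest list median, with 18 of 25 tested higher and 0 lower (27 listed, median 2.04). The shares called higher and lower among all genes tested were 13.0% and 10.1%. Besides the collagen VI chains, the proteoglycan gene Spock1 had 131 and 148 CPM in BOM with IFNg cells, against 16.7, 14.1 and 12.4 CPM in DMSO with IFNg cells (3.28 ± 0.18, edgeR adjusted p = 7.54e-10), and the metalloprotease inhibitor gene Timp2 had 95.3 and 137 CPM, against 23.4, 18.8 and 21.5 CPM (2.45 ± 0.15, edgeR adjusted p = 2.99e-09). Sparc, Mmp2 and Col18a1 rose by 3.31, 2.39 and 2.49. Markers of fibroblasts were higher too, but they include the collagen genes Col1a1, Col1a2 and Col3a1 and so are not independent of these lists. The summed level of these markers was 41.8 to 57.2 CPM in BOM with IFNg libraries and 17.3 to 18.7 CPM in DMSO with IFNg libraries. Of 10 listed 8 were tested and 5 called higher, and 0 of the 10 were at 0 in all 5 libraries. Endothelial markers summed to 57.0 CPM in both BOM with IFNg libraries and 21.8 to 26.9 CPM in DMSO with IFNg libraries, with 1 of 4 tested of 7 listed higher and 1 lower. The part of such cells in the matrix and mesenchymal results was not tested.

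Airway and secretory genes split, with 2 of 12 tested of 24 listed higher and 2 lower (median -0.46), near the shares of all genes tested (13.0% and 10.1%). Bpifa1 had 22.04 and 22.8 CPM in BOM with IFNg cells, against 1.23, 0.632 and 2.15 CPM in DMSO with IFNg cells (4.06 ± 0.31, edgeR adjusted p = 4.63e-08), beside the rise of its neighbor Bpifb1 on chromosome 2. The keratin gene Krt7 had 8.07 and 13.2 CPM, against 47.8, 73.2 and 65.2 CPM (-2.51 ± 0.21, edgeR adjusted p = 1.37e-07), and the homeobox gene Hopx had 1.09 and 0.871 CPM, against 4.29, 2.85 and 3.14 CPM (-1.81 ± 0.52), a fall lost without either BOM with IFNg library.

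Some genes of the drug target's own complexes were lower with BOM. Of 18 tested genes of the LSD1 complexes 0 rose and 4 fell (19 listed, median -0.12), against 13.0% and 10.1% of all genes tested, so the share called in either direction was near the 23.1% of all genes. Kdm1a itself (ENSMUSG00000036940.15, chromosome 4, 136550540 to 136602723) had 175 and 179 CPM in BOM with IFNg cells, against 231, 231 and 241 CPM in DMSO with IFNg cells (-0.40 ± 0.08, edgeR adjusted p = 0.00121). The CoREST paralog gene Rcor2 had 37.3 and 32.0 CPM, against 116, 80.5 and 104 CPM (-1.54 ± 0.15, edgeR adjusted p = 5.02e-07), and Rcor1 had 118 and 120.4 CPM, against 120.1, 107 and 140.2 CPM (-0.04 ± 0.11), not called. The zinc finger gene Zfp217 (-0.73) and the deacetylase gene Hdac2 (-0.31) fell too, the Hdac2 call being lost without either BOM with IFNg library or DMSO with IFNg replicate 3. BOM blocks the enzyme and not its transcript, so the level of Kdm1a does not show whether the drug acted.

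Proliferation genes were slightly lower with BOM when IFNg was present. Of 35 tested of 36 listed, 3 rose and 16 fell (median -0.26), against 10.1% of all genes tested called lower. Beside Cdk6, the factor gene E2f2 had 59.0 and 66.2 CPM in BOM with IFNg cells, against 131, 114 and 119.5 CPM in DMSO with IFNg cells (-0.95 ± 0.13, edgeR adjusted p = 3.19e-05). The spindle checkpoint gene Bub1b had 111 and 107 CPM, against 155, 143 and 150.1 CPM (-0.45 ± 0.08, edgeR adjusted p = 6.15e-04), and Cdk4 had 210.5 and 188 CPM, against 263, 283 and 283 CPM (-0.47 ± 0.09, edgeR adjusted p = 6.62e-04). The marker gene Mki67 had 746 and 767 CPM, against 949, 949 and 921 CPM (-0.31 ± 0.09, edgeR adjusted p = 0.0168). The 3 rises were the cyclin-dependent kinase inhibitor genes Cdkn1b (0.35), Cdkn1c (0.59) and Cdkn2c (0.27). The calls of Cdk6, E2f2, Bub1b and Cdk4 held under every alternative, and the other 15 did not. The falls numbered 8 without BOM with IFNg replicate 1, 7 without BOM with IFNg replicate 2 and 10 with library size alone, and the rises 1 without BOM with IFNg replicate 1 and 0 without BOM with IFNg replicate 2 or DMSO with IFNg replicate 2.

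Of 23 tested cell death genes of 27 listed, 5 rose and 2 fell (median 0.24), against 13.0% and 10.1% of all genes tested. Bcl2l11, which encodes the death inducer BIM, had 137 and 154 CPM in BOM with IFNg cells, against 42.4, 35.1 and 51.3 CPM in DMSO with IFNg cells (1.76 ± 0.13, edgeR adjusted p = 2.27e-08). Mlkl, the executor of necroptosis, had 49.1 and 55.2 CPM, against 23.1, 32.3 and 27.9 CPM (0.91 ± 0.14, edgeR adjusted p = 1.50e-04). Tnfsf10, the death ligand TRAIL, had 20.5 and 33.9 CPM, against 10.9, 10.8 and 12.9 CPM (1.25 ± 0.27, edgeR adjusted p = 0.00254), and Casp12 had 3.73 and 3.70 CPM, against 0.153, 0.949 and 0.825 CPM (2.51 ± 0.63, edgeR adjusted p = 0.00737). Only the calls of Bcl2l11 and Mlkl held under every alternative. Without BOM with IFNg replicate 2 there were 2 rises, and without either BOM with IFNg library or DMSO with IFNg replicate 1 there was 1 fall.

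The same drug difference was then measured without IFNg, where it called 3094 genes (20.3%), 1837 higher (12.1%) and 1257 lower (8.25%). The count fell to 1858 without BOM replicate 1. Of the genes higher with IFNg 1459 were also higher without it, which is 73.7% of the first list and 79.4% of the second, and 840 were lower in both (54.6% and 66.8%). The matrix list had 18 rises and 0 falls either way, and Notch1 and Col6a1 changed by 3.26 and 4.505 without IFNg. The type I interferon effectors had 12 rises and 0 falls without IFNg, where many stood near 0: Bst2 had 1.86 and 1.501 CPM in BOM cells, against 0.694, 0 and 0.527 CPM in DMSO cells (1.94 ± 0.65, edgeR adjusted p = 0.0441). Proliferation genes had 4 rises and 3 falls without IFNg. Counts past a threshold do not show that the drug difference itself differed, which the interaction tests.

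By edgeR 0 of 15230 genes (0%) were called for the interaction, the log2 fold change of BOM with IFNg present minus that without it, and limma voom called 0 as well. At an unadjusted p under 0.05 there were 725 genes (4.76%), and the lowest adjusted p was 0.127. DESeq2 called 13 genes and edgeR with the replicate number as a block 10, of which 8 were shared: Herc6, Stat2, Irf7, Cd74, H2-T23, Tiparp, Tmem108 and Tns3. Herc6 had 26.4 and 20.9 CPM in BOM cells, against 20.4, 24.5 and 24.1 CPM in DMSO cells, while with IFNg it was higher in BOM cells (interaction 1.13 ± 0.18, edgeR adjusted p = 0.127). Stat2 had 40.5 and 33.5 CPM, against 44.0, 40.0 and 41.1 CPM without IFNg (interaction 0.87 ± 0.15, 95% interval 0.55 to 1.18, edgeR adjusted p = 0.131). Irf7 had 2.33 and 4.65 CPM, against 2.92, 3.85 and 6.497 CPM without IFNg (interaction 2.06 ± 0.42, edgeR adjusted p = 0.230). For these genes the libraries without IFNg overlapped between BOM and DMSO, and those with IFNg did not. Cd74 had 0.311 and 1.201 CPM in BOM cells, against 0.972, 1.68 and 3.51 CPM in DMSO cells (interaction 3.07 ± 0.59, edgeR adjusted p = 0.150), where each value rests on few counts. Cdc20, a mitotic regulator, and H2-T23 were called in opposite directions: Cdc20 by -0.32 with IFNg and 0.34 without, H2-T23 by 0.54 with and -1.198 without (interaction edgeR adjusted p = 0.131 and 0.230).

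**Figure D5:**
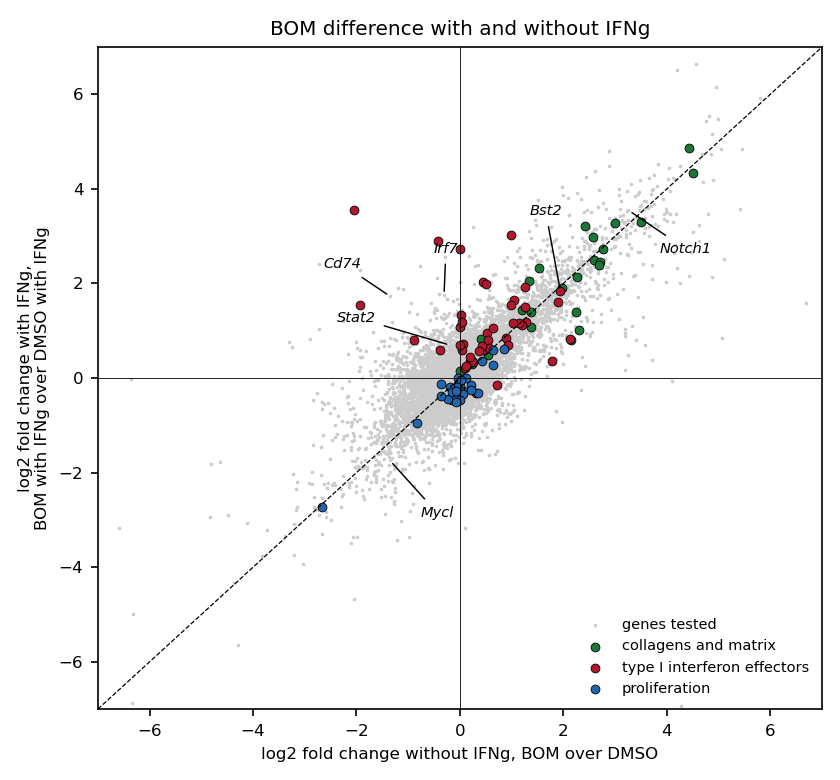
Log2 fold change with IFNg, BOM with IFNg over DMSO with IFNg (vertical axis), against that without IFNg, BOM over DMSO (horizontal axis), for all genes tested, with the diagonal dashed and 5 genes beyond the axes. Matrix genes (green) lie along the diagonal, several type I interferon effectors (red) lie above it, and most proliferation genes (blue) lie below it.

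In the 96 h experiment of the series, with 1 library for each of the lines RP-116, RP-48 and G8545 and each treatment and without IFNg, the same genes were read with no test. Among the 12 largest rises with at least 10 counts in a line, 4 of 7 were higher with BOM than with DMSO in RP-116, 8 of 12 in RP-48 and 11 of 11 in G8545. Among the 12 largest falls, 6 of 10, 11 of 12 and 7 of 11 were lower. Of the type I interferon effectors, 7 of 24 were higher with BOM in RP-116, 17 of 28 in RP-48 and 23 of 28 in G8545. The median log2 differences of these effectors were -0.0765, 0.0687 and 0.262, which is small in RP-116 and RP-48. The lines thus differed in how many of these genes shared the direction, and with 1 library each the differences have no replicate check. The share of all genes higher or lower with BOM was not measured in these lines. The counts therefore do not show that these genes differed from other genes.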

How the data were processed

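Whole-number counts of reads per gene were deposited by the authors in a table of the 10 d cultures (10 libraries), and a second table held those of the 96 h cultures. Per the submitters' processing notes, the build was mm10 and the tools included STAR 2.7, featureCounts, Subread 2.0, FastQC 0.11.9 and bcl2fastq, with no settings given. Per the labels, total RNA went into a library kit that keeps no strand information. Reads from genes overlapping in antisense, and from near-identical families (H2, Gbp, Ifit, Oas1, Tgtp and Irgm genes), may therefore be split or merged, and their counts are uncertain.

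Every library took its group from its label. filterByExpr kept 15230 of 30351 genes. After TMM scaling, edgeR 4.0.16 (R 4.3.3) fitted all 4 groups together by quasi-likelihood, with 6 residual degrees of freedom and a biological coefficient of variation of 0.104. Benjamini-Hochberg adjustment ran over every tested gene, and a gene under 0.05 was called. SE is the size of the log2 fold change divided by the square root of F. Gene places are those of GENCODE M21. No 2 libraries of a group were copies of each other (lowest chi-square per degree of freedom 2.45 over the 8 pairs within the 4 groups). The fit was tested on simulated data.

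Named by rule were the 12 largest rises and falls, limited to called, annotated genes whose groups did not overlap and whose log2 CPM averaged 2 or more, then the 4 lowest p of each list, and 20 fixed genes such as Kdm1a, H2-K1 and Mycl. Some named genes and list members count in the totals and are not reported here. The members, lists and rule were chosen with earlier results of these data known. Further list members given as examples were picked after their values were seen. The alternatives tried were DESeq2 1.42.0, voom from limma 3.58.1 with sample weights, RLE scaling, library size alone, no filter, a filter of 1 CPM in 2 libraries, a fit of the compared groups alone, a block on the replicate number and the removal of each library. Removal of Gm26917 and Gm42418 was added after seeing the data.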

Additional observations from a re-analysis of the deposited data

How the results depend on the processing

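With IFNg, the number of genes called was 3100 by DESeq2, 3438 by limma voom, 3485 with RLE, 3356 with library size alone, 3715 without the filter and 3077 with only the groups compared. Leaving out 1 library gave 2095 to 3729 calls, 1285 to 2097 of them higher and 810 to 1632 lower, and 1858 to 3228 calls without IFNg. The lowest counts came without BOM with IFNg replicate 2 and without BOM replicate 1. For the interaction, DESeq2 called 13 genes, the fit without the filter 67, and the leave-one-out fits 0 to 1. The cause was not tested.

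Numbers from the labels recur in all 4 groups, and the third principal component (7.85%) set replicate 1 apart in each. Deviations of the same-numbered BOM with IFNg and DMSO with IFNg libraries correlated by 0.268 for number 1 and 0.0723 for number 2. Over all pairs of groups these values ran from 0.0759 to 0.487 for number 1, from 0.0498 to 0.257 for number 2 and 0.125 for number 3. Over 0.1 were 5 of 6 pairs of number 1, 3 of 6 pairs of number 2 and the 1 pair of number 3. Libraries of different numbers gave -0.349 to 0.281, with 4 of 24 pairs over 0.1. In a group of 2 libraries the deviations mirror each other, so values of BOM libraries for numbers 1 and 2 are not independent. Since some same-numbered values stayed under 0.1, the pairing was not established and the shared component is a hint from the data. With the replicate block 3777 genes were called with IFNg and 10 for the interaction.

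Of the 104 genes named by rule 98 were called, and 80 of these kept the call in every alternative. The log2 fold change of Irf1, not called, turned to -0.0674 without BOM with IFNg replicate 2 (edgeR adjusted p = 0.843) and reached 0.339 without replicate 1.

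With 2 BOM libraries per group, leaving out 1 leaves a group of 1, assumed to vary like the other groups, and single calls near the threshold should be read with that in mind. Genes under about 1 CPM carry few counts, and their folds depend on single reads.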

Other observations

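Replication-dependent histone genes, a family looked at after its values were seen, were lower with BOM when IFNg was present. Most members of the Hist clusters encode core and linker histones made in S phase. Of 57 tested members 40 were called lower and 2 higher by edgeR, against 10.1% and 13.0% of all genes tested. The median log2 fold change of the 57 members was -0.62, and DESeq2 called 40 of them lower and 0 higher. Their summed level was 3221 and 2773 CPM in BOM with IFNg libraries, against 4026, 5153 and 4311 CPM in DMSO with IFNg libraries. Without IFNg it was 4169 and 4139 CPM in BOM libraries, against 4713, 4408 and 4140 CPM in DMSO libraries, with 1 member lower and 1 higher. For the interaction 53 of the 57 values were negative, with 0 called by edgeR, 33 at an unadjusted p under 0.05, 1 called by DESeq2 and 14 by edgeR without the filter on low counts. The falls with IFNg numbered 18 without BOM with IFNg replicate 2, 25 without DMSO with IFNg replicate 2 and 30 with library size alone. Copies of these genes are near-identical, and the labels do not say how polyadenylated RNA was selected for these libraries, so single counts are uncertain.

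Ribosomal protein genes, also looked at after their values were seen, were lower in the same comparison. Of 31 tested small subunit genes 19 fell and 0 rose with IFNg, and 3 fell and 0 rose without it, with a summed level of 1705 and 1710 CPM in BOM with IFNg libraries, against 2250, 2410 and 2296 CPM in DMSO with IFNg libraries. Of 47 tested large subunit genes 16 fell with IFNg and 4 without it. Of all genes tested 10.1% were called lower with IFNg and 8.25% without it, so the count of large subunit genes without IFNg was near that share. Processed pseudogenes share reads with both families.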
